A study of Mus musculus with 54 samples.

Results

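The potassium channel genes of the mouse were followed across 3 aged tissues and 4 groups of dementia-model brain. They were taken as every gene whose symbol begins with Kcn followed by a letter, which gave 93 of the 54232 genes counted in each library. The study treated mice with Cmpd60, a selective inhibitor of histone deacetylases 1 and 2, and sequenced polyadenylated RNA of whole tissue in 54 libraries. The aged mice were male, single-housed BL6 animals of about 20 months that received daily intraperitoneal injections of Cmpd60 at 22.5 mg/kg or of vehicle for 14 days. Their libraries comprised kidney (6 Cmpd60-treated and 5 vehicle), brain (6 and 6) and heart (5 and 6). The dementia cohort was male mice of the APPSWE-1349 line, 6 to 7 months old and on the BL6 background, which carry a transgene for a human amyloid precursor protein with the Swedish mutation, and their littermates without it. With the same injections they gave 4 APPSWE libraries with Cmpd60, 5 with vehicle, and 5 littermate libraries with each, all of brain. The sources used here name no promoter for the transgene. A further APPSWE library, s139, is labelled vehicle but carries a Cmpd60 heading in a table of the study, so it is in none of the comparisons. For the kidney samples the treatment field gives the opposite of the titles and source names. The titles were followed, and every kidney direction with Cmpd60 would turn under that field.

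Potassium channels let potassium ions cross the cell membrane down their gradient, which sets the resting potential and ends electrical impulses. Voltage-gated channels of the Kv families repolarise neurons and heart muscle, Kcnq and Kcnh channels restrain repeated firing or end the cardiac action potential, and calcium- or sodium-activated channels couple firing to internal ions. Inward rectifiers and K2P leak channels hold the resting potential and, in the kidney, recycle or secrete potassium along the tubule. Silent modifier subunits and auxiliary subunits form no channel of their own and change how the pore subunits behave. The 93 genes comprised 17 Kv1 to Kv4 pore subunits, 10 silent modifiers, 5 Kcnq, 8 Kcnh, 8 calcium- or sodium-activated, 14 inward rectifier, 14 K2P and 17 auxiliary genes.

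RefSeq start regions (GRCm38.p6) were held for 69 of the 93 genes. The 250 bases before the start are shown for 5 genes on which the tissue results turn, 2 that were highest in kidney, 2 in heart and 1 in brain. Each is written 5′ to 3′ on the gene's strand, with CG dinucleotides in capitals.
Kcnj1 (kidney), chr9:32393735-32393984, plus strand: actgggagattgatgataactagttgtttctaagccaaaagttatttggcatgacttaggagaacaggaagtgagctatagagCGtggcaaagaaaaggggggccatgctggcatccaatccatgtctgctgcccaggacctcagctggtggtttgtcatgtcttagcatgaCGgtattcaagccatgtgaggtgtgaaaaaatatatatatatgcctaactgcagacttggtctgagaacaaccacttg
Kcnj15 (kidney), chr16:95257308-95257557, plus strand: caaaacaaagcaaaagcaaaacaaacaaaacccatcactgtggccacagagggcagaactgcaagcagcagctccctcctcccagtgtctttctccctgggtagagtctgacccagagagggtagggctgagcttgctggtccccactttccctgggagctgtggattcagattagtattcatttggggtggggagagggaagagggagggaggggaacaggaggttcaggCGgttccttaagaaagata
Kcnj5 (heart), chr9:32344345-32344594, minus strand: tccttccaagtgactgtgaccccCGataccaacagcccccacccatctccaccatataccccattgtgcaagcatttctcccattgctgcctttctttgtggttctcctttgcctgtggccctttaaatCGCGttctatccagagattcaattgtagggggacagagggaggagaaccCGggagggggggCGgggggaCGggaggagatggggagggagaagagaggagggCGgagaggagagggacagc
Kcnip2 (heart), chr19:45816064-45816313, minus strand: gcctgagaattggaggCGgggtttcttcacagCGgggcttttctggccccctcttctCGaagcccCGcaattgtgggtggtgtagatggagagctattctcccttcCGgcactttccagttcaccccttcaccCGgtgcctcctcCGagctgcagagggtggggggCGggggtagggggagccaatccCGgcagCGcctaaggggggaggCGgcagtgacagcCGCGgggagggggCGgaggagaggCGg
Kcna2 (brain), chr3:107101317-107101566, plus strand: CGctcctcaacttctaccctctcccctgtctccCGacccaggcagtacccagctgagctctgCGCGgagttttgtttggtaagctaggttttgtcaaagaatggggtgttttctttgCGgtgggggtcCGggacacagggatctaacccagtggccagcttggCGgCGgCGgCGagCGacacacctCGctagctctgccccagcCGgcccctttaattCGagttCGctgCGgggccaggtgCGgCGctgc

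The number of CG dinucleotides in these windows was 2 for Kcnj1, 1 for Kcnj15, 7 for Kcnj5, 15 for Kcnip2 and 18 for Kcna2. Over all starts listed for genes highest in brain by the rule of the tissue comparison, the median was 9 (64 starts of 45 genes). It was 6 over 7 starts of genes highest in heart, 3.5 over 8 starts of genes highest in kidney and 6 over all 32851 mouse starts listed. The letters GGGCGG, searched on both strands, occurred in 44.7% of the potassium channel windows and in 32.7% of all windows. Kidney and heart are represented by few starts, and these counts are descriptions of the windows.

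Counts on genes ranged from 23584609 to 57430113 per library, with a median of 28114298, so 3 counts correspond to at most 0.127 CPM, the count scaled to library size, in any library. Such floors and all counting errors quoted cover counting error only. In the vehicle libraries the tissue labels were checked against marker genes. Summed neuron markers were at 4611 to 5316 CPM in brain, 80.9 to 91.5 CPM in heart and 1.83 to 2.93 CPM in kidney. Ventricular muscle markers were at 53394 to 62971 CPM in heart and at most 10.5 CPM elsewhere, and proximal tubule markers at 6297 to 7747 CPM in kidney and at most 14.8 CPM elsewhere. In the dementia cohort the number of genes detected ranged from 15044 to 24821 per library. In these bulk samples fewer cells of a type and less RNA per cell cannot be told apart. The labels do not say which tissues came from the same mouse, so p-values measure the spread between libraries.

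The first question was where each gene was expressed, and this was asked in the 17 vehicle libraries of aged mice. The 5 kidney libraries among them are vehicle by their titles and Cmpd60 by the treatment field. Under that field, each comparison with kidney would set treated kidney against untreated brain or heart. Most potassium channel genes were highest in brain. Of 90 genes tested (all but Kcnmb3, Kcnk16 and Kcnk18, whose counts were too low), 60 were at least 2-fold higher in brain than in both heart and kidney at an adjusted p below 0.05, 10 were higher in heart than in both other tissues and 6 in kidney. These are 66.7%, 11.1% and 6.67% of the potassium channel genes, against 25.1%, 9.15% and 12.2% of all 24855 genes tested. The remaining 14 genes (15.6%, against 53.5% of all genes) met the rule in no tissue. All p-values for fits across genes are from edgeR's quasi-likelihood test with Benjamini-Hochberg adjustment over all genes tested.

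The classes differed in where their genes were highest. Of the Kv1 to Kv4 pore subunits 15 were highest in brain and 2 in heart, with none in kidney. Among the silent modifiers 7 were highest in brain and 2 in heart, among Kcnh genes 7 of 8 in brain, and among Kcnq genes 3 of 5 in brain. The inward rectifiers were the most evenly spread, with 5 in brain, 3 in heart, 3 in kidney and 3 in none. K2P genes fell 8 to brain, 1 to heart and 1 to kidney, and auxiliary genes 10, 2 and 1. Of the calcium- or sodium-activated genes 5 were highest in brain and 1 in kidney.

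In pairwise comparison, 78 of 90 genes differed between brain and heart (55.9% of all genes), 63 being higher (34.7% of all genes) and 15 lower in brain (21.1%). Between brain and kidney 84 differed (56.3% of all genes), 74 being higher (32.3%) and 10 lower in brain (23.9%). Between kidney and heart 58 differed (39.5% of all genes), 24 being higher (21.8%) and 34 lower in kidney (17.7%). The median log2 difference of the potassium channel genes was 4.79 for brain minus heart, 4.59 for brain minus kidney and -0.50 for kidney minus heart. Over all genes these medians were 0.34, 0.20 and 0.00. With DESeq2's size factors in place of TMM the medians of all genes were 0.40, 0.27 and 0.00.

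**Figure D1:**
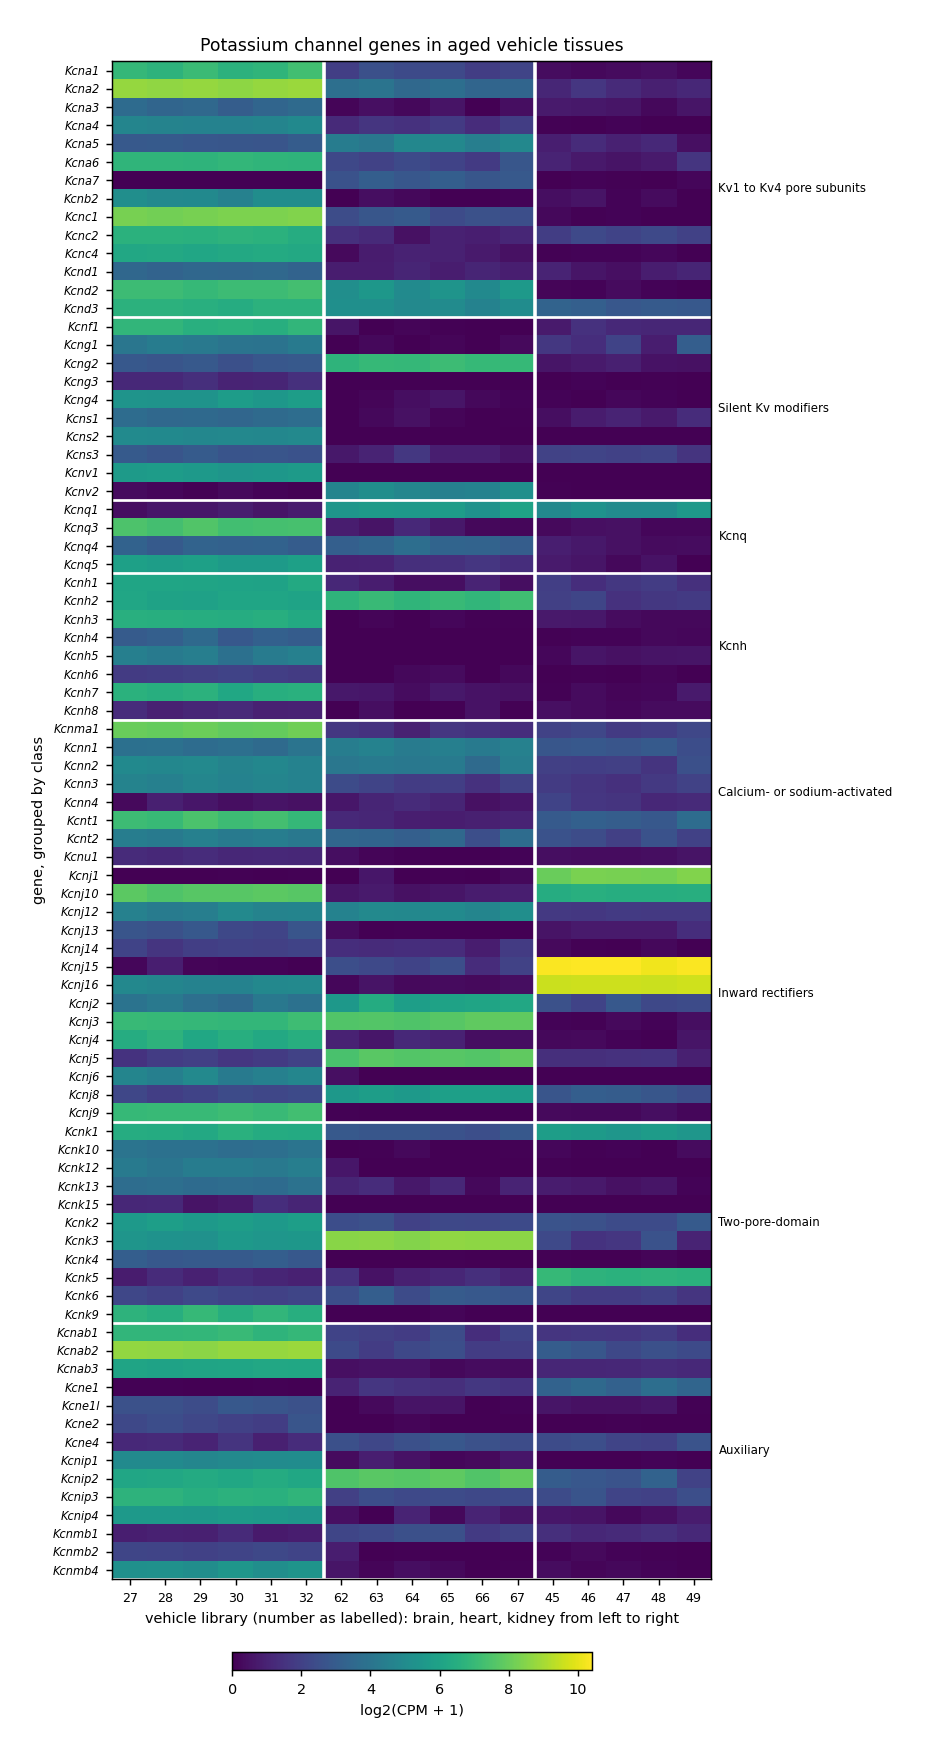
Level of each potassium channel gene that reached a mean of 1 CPM in at least 1 tissue (one line each, grouped by class, apart from 3 genes not reported here) in each of the 17 vehicle libraries of aged brain, heart and kidney (columns), coloured by log2(CPM + 1). Most lines are brightest in the 6 brain libraries, while Kcnj15, Kcnj16 and Kcnj1 are the brightest in the 5 kidney libraries and Kcnk3, Kcnip2, Kcnj3 and Kcnj5 in the 6 heart libraries.

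The tissues also differed in how many of these genes carried the signal. The summed level of all 93 genes was 5546 ± 158 CPM in brain (SD, n = 6), 1787 ± 131 CPM in heart (n = 6) and 2780 ± 95.6 CPM in kidney (n = 5). A mean of at least 1 CPM was reached by 78 genes in brain, 43 in heart and 39 in kidney. The 10 genes of highest CPM held 50.4% of the sum in brain, 83.1% in heart and 95.9% in kidney, where the top 3 alone held 84.5%. By class, Kv1 to Kv4 pore subunits made up 35.1% of the sum in brain (1948 ± 81.8 CPM), and inward rectifiers 88.3% in kidney (2455 ± 102 CPM). In heart, inward rectifiers (558 ± 54.2 CPM, 31.2%) and K2P genes (399 ± 20.3 CPM, 22.3%) led, ahead of Kv1 to Kv4 pore subunits at 209 ± 23.0 CPM (11.7%). These sums and shares are of counts and are not corrected for gene length.

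Kcnj15, Kcnj16 and Kcnj1, all inward rectifiers, led in kidney. Kcnj15, a basolateral channel of the proximal tubule, was at 1144, 1284, 1290, 1326 and 1341 CPM in the kidney libraries, from 1.49 to 4.69 CPM (median 3.63) in heart and from 0 to 0.836 CPM (median 0.0958) in brain. Kidney exceeded heart by 8.51 log2 units (SE 0.27, adjusted p = 3.75e-17). Kcnj16, which joins Kcnj10 in channels of the tubule's basolateral membrane and of glia, was at 743, 757, 765, 772 and 803 CPM in kidney, 23.3 to 29 CPM (median 26.6) in brain and 0.148 to 0.458 CPM (median 0.220) in heart. Brain minus kidney was -4.88 log2 units (SE 0.08, adjusted p = 8.84e-22). Kcnj1, the secretory channel of the thick ascending limb and collecting duct, was at 258, 299, 307, 315 and 343 CPM in kidney, with at most 0.560 CPM in any heart library and a mean of 0.0135 CPM in brain. For all 3 genes the kidney values lay apart from those of both other tissues.

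The other kidney-high genes belonged to other classes. Kcnk5, a K2P leak channel of the proximal tubule, was at 97.6, 98.6, 105, 105 and 123 CPM in kidney, with means of 1.10 CPM in brain and 1.16 CPM in heart. It exceeded heart by 6.50 log2 units (SE 0.19, adjusted p = 6.90e-18). Kcne1, an auxiliary subunit that slows Kcnq1 channels, was at 8.30, 8.69, 9.42, 10.8 and 12.6 CPM in kidney against 1.77 ± 0.415 CPM in heart (log2 difference 2.48, SE 0.19, adjusted p = 1.18e-10) and 0.0245 CPM in brain. Kcnn4, the intermediate-conductance calcium-activated channel, was at 1.25, 1.38, 1.97, 2.12 and 3.30 CPM in kidney, by 1.26 log2 units above heart (SE 0.38, adjusted p = 0.00728). Kcnn4 was the only one of the 6 kidney-high genes whose kidney libraries overlapped those of another tissue. Kcnj10 and Kcnk1 were also well expressed in kidney, at 89.0 ± 3.60 and 47.8 ± 4.94 CPM, yet both were higher in brain, at 205 ± 12.7 CPM (log2 difference 1.21, SE 0.07, adjusted p = 9.85e-13) and 84.2 ± 6.47 CPM (0.82, SE 0.08, adjusted p = 1.41e-08).

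The genes higher in heart included the leak channel Kcnk3 and genes of the acetylcholine-gated and transient outward currents. Kcnk3 ranged from 348 to 400 CPM (median 387) in heart, against 41.9 ± 3.71 CPM in brain (brain minus heart -3.18, SE 0.18, adjusted p = 5.95e-13) and 1.04, 1.86, 2.15, 3.85 and 5.07 CPM in kidney. Kcnj5, which with Kcnj3 forms the acetylcholine-gated channel of the atrium, ranged from 168 to 233 CPM (median 202) in heart and had means of 2.52 CPM in brain and 1.56 CPM in kidney (brain minus heart -6.32, SE 0.14, adjusted p = 4.18e-20). Its partner Kcnj3 was shared with brain, at 205 ± 20.8 CPM in heart and 125 ± 10.1 CPM in brain (-0.71, SE 0.10, adjusted p = 8.55e-07), which is under 2-fold. Kcnip2, the auxiliary subunit of the transient outward channels, ranged from 184 to 237 CPM (median 207) in heart against 75.0 ± 5.00 CPM in brain (-1.47, SE 0.13, adjusted p = 1.26e-09). The pore subunits it joins, Kcnd2 and Kcnd3, were instead higher in brain (138 ± 10 and 97.8 ± 6.50 CPM) than in heart (37.5 ± 7.37 and 30.9 ± 4.46 CPM).

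Further heart-high genes were found in several classes, and the lowest heart library was above every brain and kidney library in all 10. The silent modifier Kcng2 was at 123 ± 9.84 CPM in heart and 5.97 CPM in brain, and Kcnv2, another silent modifier, at 27.6 ± 5.44 CPM in heart and 0.112 CPM in brain. Kcnj2, the classical inward rectifier of the ventricle, was at 64.6 ± 13.6 CPM in heart and 14.4 CPM in brain (-2.17 log2 units), and Kcnj8, the pore of a nucleotide-gated channel of vessels and muscle, at 52.0 ± 5.08 and 3.61 CPM (-3.85). Kcna5, a Kv1 subunit, reached 23.3 ± 5.07 CPM in heart and 6.32 CPM in brain. Kcna7 was at 5.14 to 7.65 CPM (median 6.27) in heart and at 0 in all 6 brain libraries, which makes it at least 67.9-fold higher in heart against a floor of 3 counts per brain library. Kcnmb1, the smooth muscle subunit of the large-conductance calcium-activated channel, was at 3.76 CPM in heart, 1.45 CPM in kidney and 0.923 CPM in brain. Kcnh2, which carries the rapid delayed rectifier current, was higher in heart (123 ± 16 CPM) than in brain (65.5 ± 3.60 CPM) by less than 2-fold (-0.91, SE 0.10, adjusted p = 2.02e-08).

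The genes higher in brain included Kv1, Kv3, Kcnq and auxiliary genes. Kcna2, a Kv1 subunit of axons, ranged from 391 to 458 CPM (median 426) in brain against 11.6 ± 2.24 CPM in heart and a mean of 1.35 CPM in kidney (brain minus heart 5.19, SE 0.13, adjusted p = 2.52e-19). Kcnab2, its cytoplasmic partner, was at 418 ± 21.1 CPM in brain and at 3.40 and 5.13 CPM in heart and kidney. Kcnq3, a subunit of the neuronal M-current, had means of 166 CPM in brain, 0.573 CPM in heart and 0.244 CPM in kidney, and Kcnj9, a G-protein-gated rectifier of neurons, means of 133, 0.00824 and 0.197 CPM. The fast-spiking Kv3 gene Kcnc1 was at 314 ± 19.1 CPM, the large-conductance calcium-activated channel Kcnma1 at 254 ± 17.7 CPM and the sodium-activated channel Kcnt1 at 142.4 ± 19.9 CPM.

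Several brain genes were listed at 0 in every library of another tissue. Kcnv1, a silent modifier, ranged from 41.8 to 51.9 CPM (median 48.1) in brain and was at 0 in all heart and kidney libraries, at least 302-fold and at least 429-fold below brain. Kcns2, also a silent modifier, was at 28.4 ± 1.41 CPM in brain and at 0 in both other tissues, at least 181-fold and 258-fold below. The leak channel Kcnk9 was at 102 ± 14.2 CPM in brain and at 0 in kidney, at least 926-fold below, and Kcnj6, a G-protein-gated rectifier, was at 23.6 CPM in brain and at least 214-fold lower in kidney. In all, 2 genes were at 0 in every brain library (Kcna7 and Kcnk16), 11 in every heart library and 8 in every kidney library.

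**Figure D2:**
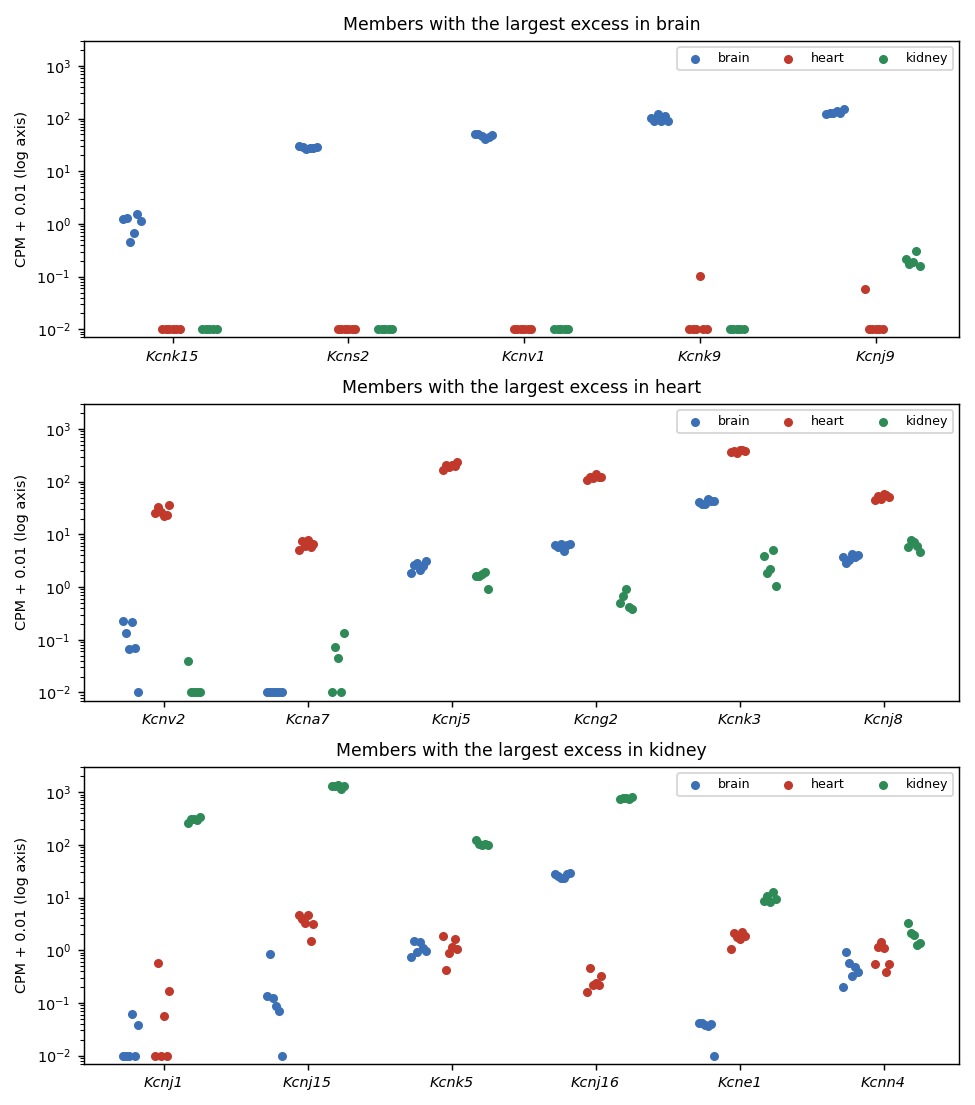
Level in each vehicle library (points, 6 brain, 6 heart and 5 kidney) of the genes with the largest excess in brain (top, 5 genes), heart (middle, 6 genes) and kidney (bottom, 6 genes), as CPM plus 0.01 on a log axis, so that 0 plots at 0.01. The favoured tissue stands apart from the others for every gene shown except Kcnn4, and Kcnv1, Kcns2 and Kcnk15 lie at 0 throughout heart and kidney.

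A further group of 26 genes reached 1 CPM in all 3 tissues. Among those with the smallest spread between tissues was Kcnk6, a K2P gene, at 3.39 CPM in brain, 5.90 CPM in heart and 2.73 CPM in kidney, where brain and kidney did not differ beyond their spread (0.32 log2 units, adjusted p = 0.11, or 0.0298 by DESeq2). Kcne4, an auxiliary subunit, was at 1.33, 4.79 and 4.08 CPM, and heart and kidney did not differ beyond their spread (-0.23, adjusted p = 0.342). Kcnn1, a small-conductance calcium-activated channel, was at 12.9, 20.9 and 5.84 CPM in brain, heart and kidney, and Kcnt2, a sodium-activated channel, at 19.3, 8.96 and 4.12 CPM. Kcnq1, the pore of the slow delayed rectifier, was shared by heart (49.3 ± 9.13 CPM) and kidney (35.2 ± 6.84 CPM) and was at 0.579 CPM in brain. Heart exceeded kidney for Kcnq1 by less than 2-fold (kidney minus heart -0.49, SE 0.14, adjusted p = 0.00379).

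For comparison between genes, levels were divided by exon length, taken from GENCODE vM1 on NCBIM37. In brain Kcna2 led at 122 ± 6.56 CPM per kb, followed by Kcnk9 at 84.5 ± 11.7 CPM per kb. The annotated length of Kcnk9 was only 1209 bases, against 3456 bases for Kcna2. In kidney Kcnj16 at 195 ± 5.66 and Kcnj15 at 190 ± 11.6 CPM per kb did not differ beyond their spread, and Kcnj1 followed at 93.3 CPM per kb. In heart Kcng2 led at 174 CPM per kb on an annotated length of only 705 bases, and Kcnk3 followed at 100 CPM per kb.

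The second question was whether Cmpd60 changed these genes in the aged tissues. CPM given for it are from each tissue's own fit and are not to be set against those of the tissue comparison. No potassium channel gene passed an adjusted p of 0.05 in any of the 3. In kidney 0 of 72 genes tested were called where 0.3% of all genes were, in brain 0 of 88 (0.0205% of all genes), and in heart 0 of 68 (1.18% of all genes). DESeq2 called 0 in kidney, 2 in brain (Kcng1 and Kcnk12) and 3 in heart (Kcna2, Kcnip2 and Kcnj12), and limma-voom called 0 in each. At an unadjusted p below 0.05 there were 7 genes in kidney (11.3% of all genes), 20 in brain (13.8% of all genes) and 13 in heart (13.5% of all genes). The median log2 fold change was -0.02 in kidney, 0.05 in brain and 0.05 in heart, against -0.00, 0.01 and -0.00 for all genes. Among genes at 1 CPM or more, the 95% interval of the fold change lay within 2-fold for 33 of 41 in kidney, all 79 in brain and 36 of 40 in heart.

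**Figure D3:**
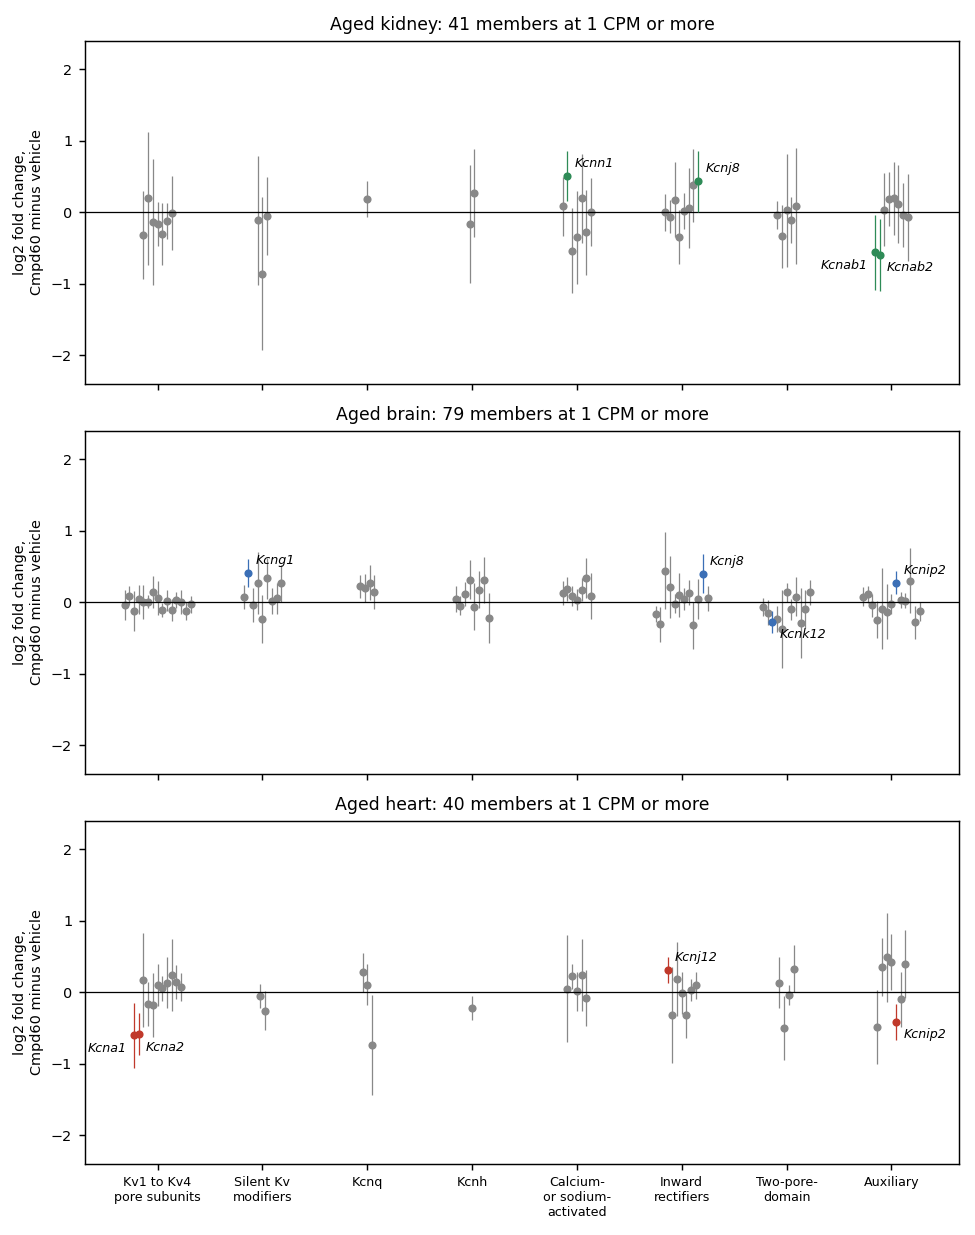
Log2 fold change of Cmpd60 over vehicle (points) with its 95% interval (lines) for each potassium channel gene at 1 CPM or more in aged kidney, brain and heart (top to bottom), ordered by class along the x axis. The 4 genes of smallest p in each tissue are coloured and named, and all 79 brain intervals lie within 2-fold.

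In heart the smallest p-value belonged to Kcna2, the Kv1 subunit. It was at 5.28, 5.41, 5.76, 6.72 and 7.16 CPM in Cmpd60-treated hearts and at 7.22 to 11.7 CPM (median 8.92) in vehicle hearts, so that the groups did not overlap. The log2 fold change was -0.59 (SE 0.14, 95% interval -0.88 to -0.30) and the adjusted p was 0.050004, just above the threshold of 0.05. It passed under 5 of the 7 alternatives, whose adjusted p ranged from 0.00438 to 0.0652, and without Cmpd60 library 71 (0.0422). Kcnt1 and Kcnd1 also did not overlap between the groups, both at low levels. Kcnt1 was at 0.248, 0.251, 0.321, 0.417 and 0.497 CPM with Cmpd60 against 0.606 to 1.04 CPM with vehicle (-1.18, SE 0.36, adjusted p = 0.129), and Kcnd1 at 0.248 to 0.556 CPM against 0.590 to 0.906 CPM (-0.80). These 3 of 68 genes compare with 2.69% of all genes whose groups did not overlap.

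The cardiac subunits Kcnip2 and Kcnj12 came next in heart. Kcnip2 was at 89.0, 102, 120, 151.1 and 152 CPM with Cmpd60 and at 148 to 181 CPM (median 161) with vehicle, a log2 fold change of -0.41 (SE 0.12, adjusted p = 0.108) between groups that overlapped. Without Cmpd60 library 71 its adjusted p was 0.0491, and leaving out any other single library did not bring it below 0.05. Kcnj12, an inward rectifier that partners Kcnj2, was at 24.6, 27, 28.3, 28.6 and 29.2 CPM against 18.6 to 25.8 CPM (median 21.9), a log2 fold change of 0.31 (SE 0.09, adjusted p = 0.0901). Kcna1 was at 1.40 to 2.57 CPM with Cmpd60 and 2.20 to 3.66 CPM with vehicle (-0.61, SE 0.21, adjusted p = 0.204). At p below 0.01 there were 4 genes (5.34% of all genes). Of the heart-high genes, Kcnk3 was at 275, 280, 280, 293 and 337 CPM with Cmpd60 against 275 to 324 CPM (-0.04, 95% interval -0.17 to 0.10), and Kcnj5 at 152, 154.1, 156, 162 and 184 CPM against 135 to 178 CPM (0.03, 95% interval -0.13 to 0.18).

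Repolarisation genes of the heart did not pass the threshold. Kcnh2 was at 73.7, 79.9, 81.9, 89.4 and 89.7 CPM with Cmpd60 and 85.7 to 113 CPM with vehicle (-0.22, SE 0.08, adjusted p = 0.215). Kcnq1 was at 35.8, 42.6, 43.6, 56.1 and 57 CPM against 31 to 49.3 CPM (0.28, SE 0.13, adjusted p = 0.351). Kcnj3 was at 78.6, 108, 138.8, 140 and 184 CPM against 145.5 to 189 CPM (-0.32, adjusted p = 0.380). The 4 atrial muscle markers were all lower in the same comparison, with a sum of 2102 to 5695 CPM with Cmpd60 and 2722 to 6571 CPM with vehicle, and 3 of 4 conduction markers were lower. Their part in the values of Kcnj3, Kcnip2 and Kcna2 was not tested.

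In brain the genes of smallest p included the silent modifier Kcng1 and the K2P gene Kcnk12. Kcng1 ranged from 19.2 to 29.7 CPM (median 26.7) with Cmpd60 and from 17.2 to 22.9 CPM (median 19.7) with vehicle, with 5 of 6 treated libraries above every vehicle library. Its log2 fold change was 0.41 (SE 0.10, adjusted p = 0.107). The adjusted p was 0.0496 without vehicle library 29, 0.0123 by DESeq2 and 0.0455 without a low-count filter. Leaving out any other single library did not bring it below 0.05. Kcnk12 ranged from 16.6 to 20.0 CPM (median 18.1) with Cmpd60 against 18.2 to 24.3 CPM (median 22.4), a log2 fold change of -0.28 (SE 0.07, adjusted p = 0.131). In no gene did the groups lie apart, where 0.925% of all genes did.

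Further brain genes at p below 0.01 (6 in all, 4.29% of all genes) had small fold changes. Kcnip2 ranged from 88.1 to 127 CPM (median 110) with Cmpd60 and from 83.5 to 98.6 CPM (median 86.5) with vehicle (0.27, SE 0.08, adjusted p = 0.160). Kcnj8 ranged from 4.92 to 7.18 CPM against 3.38 to 5.00 CPM (0.40, SE 0.13, adjusted p = 0.194). Outside these 6, Kcnq3 had a log2 fold change of 0.20 (adjusted p = 0.354). All 5 Kcnq genes and 7 of 8 calcium- or sodium-activated genes had a fold change above 0, with medians of 0.22 and 0.11, while 8 of 13 K2P genes were below 0, with a median of -0.10. The glial rectifier Kcnj10 was at 198 to 239 CPM against 217 to 259 CPM (-0.16, SE 0.06, adjusted p = 0.219), and Kcna2 at 476 to 613 CPM against 460 to 544 CPM (0.09, adjusted p = 0.560). Beside these values, all 5 cerebellar markers were lower with Cmpd60 (sum 343 to 670 CPM against 524 to 750 CPM). Of the endothelial markers 3 of 4 were higher (sum 188 to 273 CPM against 165 to 197 CPM). Summed neuron markers were at 5898 to 7277 CPM (median 6394) with Cmpd60 against 5520 to 6318 CPM (median 5977). Astrocyte markers summed to 3146 to 3809 CPM (median 3432) against 2964 to 3315 CPM (median 3171). Choroid plexus markers summed to 211 to 903 CPM (median 492) against 526 to 745 CPM (median 685). The Cmpd60 libraries were also deeper, with a median of 38855585 counts against 28188598. Their part in the results was not tested.

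In kidney, where all directions rest on the titles and would turn under the treatment field, the small-conductance channel Kcnn1 had the smallest p-value. It ranged from 7.42 to 12.3 CPM (median 7.91) in Cmpd60-treated kidney and was at 4.85, 6.16, 6.38, 6.72 and 7.27 CPM with vehicle. This was the 1 gene at p below 0.01 (3.78% of all genes) and the 1 gene whose kidney groups did not overlap (2.3% of all genes), with a log2 fold change of 0.50 (SE 0.16, adjusted p = 0.246). The adjusted p was 0.0161 where all 34 aged libraries were fitted together. Of the Kv1 partners, Kcnab2 and Kcnab1 had fold changes below 0 that did not pass the threshold, and Kcnab3 had one of 0.04 (SE 0.24). Kcnab2 ranged from 2.59 to 5.89 CPM against 4.12, 4.40, 5.10, 6.34 and 7.62 CPM (-0.60, SE 0.24, adjusted p = 0.358), and Kcnab1 from 0.939 to 2.15 CPM against 1.67, 2.21, 2.27, 2.39 and 2.65 CPM (-0.56, SE 0.25, adjusted p = 0.408).

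The kidney's leading rectifiers showed no difference beyond their spread, though that spread was wide. Kcnj15 ranged from 588 to 1422 CPM (median 1147) with Cmpd60 against 1230, 1377, 1386, 1432 and 1442 CPM with vehicle, a log2 fold change of -0.35 (95% interval -0.73 to 0.03, adjusted p = 0.478), which was -0.22 without Cmpd60 library 55. Proximal tubule markers moved with it, with a sum of 3325 to 8944 CPM with Cmpd60 and 6769 to 8363 CPM with vehicle, 3 of 4 being lower, and their part in it was not tested. Kcnj16 ranged from 660 to 1076 CPM against 798, 813, 826, 829 and 862 CPM (0.01, 95% interval -0.24 to 0.27). Kcnj1 ranged from 232 to 379 CPM against 277, 322, 330, 340 and 368 CPM (0.00, 95% interval -0.26 to 0.26). The intervals of Kcnj16 and Kcnj1 were narrower than that of Kcnj15.

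**Figure D4:**
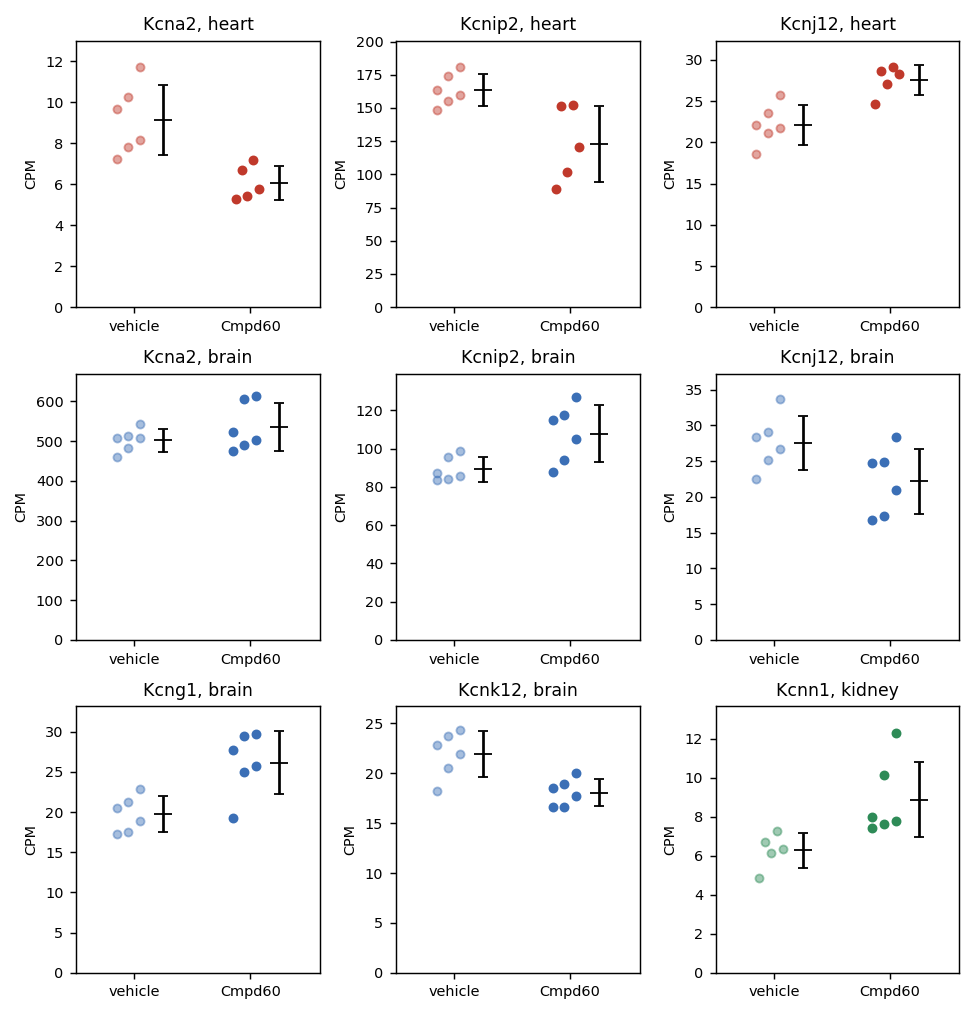
Level in each library (points, pale for vehicle and dark for Cmpd60) with mean and SD (bars) in CPM of Kcna2, Kcnip2 and Kcnj12 in heart (top) and in brain (middle), and of Kcng1 and Kcnk12 in brain and Kcnn1 in kidney (bottom). The groups lie apart for Kcna2 in heart (at most 7.16 against at least 7.22 CPM) and Kcnn1 in kidney (at least 7.42 against at most 7.27 CPM) and overlap in the other panels.

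Whether the effect of Cmpd60 differed between tissues was tested directly in the fit of all 34 aged libraries. Comparisons with kidney rest on the titles. Under the treatment field their values and calls would change and not merely turn. Of 92 genes tested, 0 passed an adjusted p of 0.05 for heart minus brain (0.0517% of all genes), kidney minus brain (0.0885%) or heart minus kidney (0.35%). At an unadjusted p below 0.05 there were 15, 13 and 11 genes, against 9.08%, 10% and 11.7% of all genes. DESeq2 called 4 (Kcna2, Kcnab3, Kcng4 and Kcnt1), 2 (Kcng4 and Kcns1) and 3 (Kcnab2, Kcnj1 and Kcns1), and limma-voom 0 in each. Several of these genes were at low levels in a tissue compared. In heart libraries Kcnj1 was at most 0.433 CPM, Kcns1 0.289 CPM, Kcng4 0.698 CPM and Kcnab3 0.938 CPM. In kidney libraries Kcng4 was at most 0.407 CPM. The difference of Kcna2 between heart and brain was -0.69 log2 units (SE 0.17, adjusted p = 0.124), and those of Kcnip2 and Kcnj12 were -0.70 (adjusted p = 0.317) and 0.61 (adjusted p = 0.323). For Kcnab2, heart minus kidney was 0.96 (adjusted p = 0.0697). This adjusted p was 0.0454 without heart vehicle library 65 and 0.00579 without kidney Cmpd60 library 54. Leaving out any other single library did not bring it below 0.05. The heart minus kidney difference of Kcnn2, a small-conductance calcium-activated channel, was 0.57. The kidney minus brain difference of Kcnab2 was -0.73 (adjusted p = 0.184, or 0.0151 without kidney Cmpd60 library 54, the only single library whose omission brought it below 0.05). Of 60 genes tested in each tissue on its own, 7 were higher with Cmpd60 in all 3 tissues and 3 were lower in all 3 (Kcnk5, Kcng2 and Kcnmb4). These are counts of signs without regard to spread, and no share over all genes is available beside them. They also rest on the kidney titles, so no shared response is read from them.

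In the dementia cohort the same question was asked in younger brains with and without the transgene. No potassium channel gene of the 87 tested passed an adjusted p of 0.05 in any of 5 comparisons by edgeR, DESeq2 or limma-voom. Over all genes, edgeR called 0% for Cmpd60 in APPSWE brain, 0% for Cmpd60 in littermate brain, 0.00862% for genotype under vehicle, 0% for genotype under Cmpd60 and 0% for their interaction. At an unadjusted p below 0.05 there were 8, 5, 4, 0 and 3 genes, against 9.46%, 3.67%, 8.67%, 1.34% and 5.09% of all genes. The 95% interval of the Cmpd60 effect lay within 2-fold for 56 of 81 genes at 1 CPM or more in APPSWE brain and 56 of 78 in littermate brain. The mouse App gene was at 2248 ± 115 CPM in APPSWE and 2156 ± 127 CPM in littermate vehicle brain (log2 difference 0.06, SE 0.06). The human transgene was not counted as a gene of its own, so this does not check the genotype labels.

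**Figure D5:**
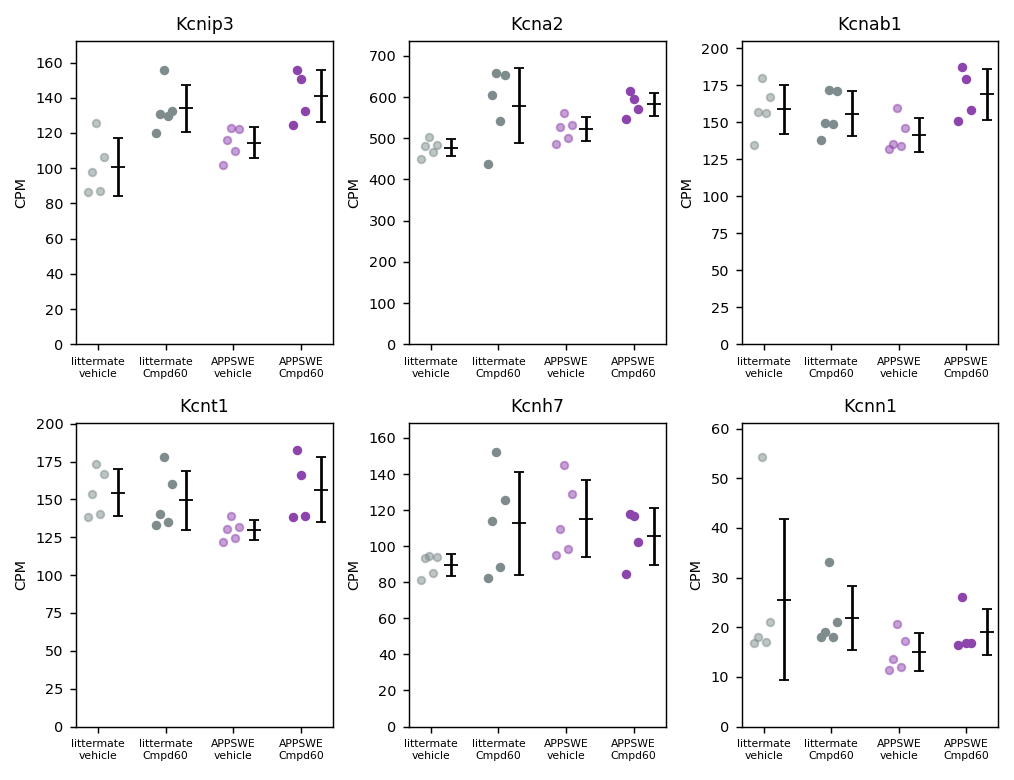
Level in each brain library (points) with mean and SD (bars) in CPM of 6 potassium channel genes in littermate and APPSWE mice given vehicle (pale) or Cmpd60 (dark). Kcnip3 is higher with Cmpd60 in both genotypes, the vehicle littermates of Kcnh7 lie within 81.0 to 94.5 CPM below every vehicle APPSWE library, and 1 littermate vehicle library of Kcnn1 stands at 54.4 CPM.

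Kcnip3, a calcium sensor that joins Kv4 channels and also binds DNA, had the smallest p-value for Cmpd60 in littermates and was higher with the compound in both genotypes. In littermate brain it was at 120, 130, 131, 133 and 156 CPM with Cmpd60 and 86.2, 86.8, 97.8, 107 and 126 CPM with vehicle (log2 fold change 0.41, SE 0.11, adjusted p = 0.999). In APPSWE brain it was at 125, 132, 150.6 and 156 CPM with Cmpd60 and 102, 110, 116, 122 and 123 CPM with vehicle (0.30, SE 0.11, adjusted p = 0.444). The groups did not overlap in APPSWE brain and overlapped by 1 vehicle library in littermates, and the interaction was -0.11 (SE 0.16). Kcnip3 and Kcng1 were the 2 genes whose APPSWE groups lay apart (2.31% of all genes). Kcng1 was at 24.9, 25.9, 29.1 and 31.1 CPM with Cmpd60 and at 16.5, 18.3, 21.5, 23.6 and 24.5 CPM with vehicle.

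The axonal Kv1 complex gave mixed values. Kcna2 in littermate brain was at 439, 542, 605, 653 and 657 CPM with Cmpd60 and 449, 467, 481, 484 and 503 CPM with vehicle (0.28, SE 0.09, adjusted p = 0.999), so 4 of 5 treated libraries were above every vehicle library and 1 was below. In APPSWE brain Kcna2 was at 548, 571, 595 and 613 CPM against 487, 500, 526, 533 and 562 CPM (0.16, SE 0.09, adjusted p = 0.650). Kcnab1, its cytoplasmic partner, was at 150.6, 158, 179 and 187 CPM against 132, 134, 136, 146.04 and 159 CPM in APPSWE brain (0.26, SE 0.10, adjusted p = 0.444). In littermates the fold change of Kcnab1 was -0.03, and the interaction was 0.28 (adjusted p = 0.982). Kcnab3, of the same subunit family, was at 77.0, 78.4, 82.2 and 85.7 CPM against 84.8, 88.5, 96.4, 106 and 113 CPM in APPSWE brain (-0.28, SE 0.11, adjusted p = 0.444).

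For genotype under vehicle the 4 genes of smallest p were Kcnj15, Kcnn1, Kcnh7 and Kcnt1. Kcnj15 was at 0 in 4 APPSWE libraries and at 9.58 CPM in the remaining one, s140, against 0, 0, 0, 0.0263 and 0.107 CPM in littermates. Its log2 difference of 5.96 (SE 2.20, adjusted p = 0.509) was -2.91 without library s140. Kcnh7, a Kcnh channel of neurons, was at 94.9, 98.4, 109, 129 and 145.2 CPM in APPSWE brain and 81.0, 85.4, 93.6, 93.9 and 94.5 CPM in littermates, the 1 gene whose groups did not overlap (0.638% of all genes). Its log2 difference was 0.36 (SE 0.14, adjusted p = 0.509). Littermates with Cmpd60 were at 82.6, 88.5, 114, 126 and 152 CPM of Kcnh7 and APPSWE mice with Cmpd60 at 84.5, 103, 117 and 118 CPM, with an interaction of -0.46 (SE 0.21, adjusted p = 0.966). Kcnt1 was at 122, 125, 130, 132 and 139.4 CPM in APPSWE vehicle brain against 138, 140, 153.7, 166 and 173 CPM in littermate vehicle brain (-0.25, SE 0.10, adjusted p = 0.509), and at 138.6, 138.8, 166 and 183 CPM in APPSWE brain with Cmpd60. Kcnn1 was at 11.4, 12.0, 13.7, 17.2 and 20.7 CPM in APPSWE and 16.9, 17.1, 18.1, 21.1 and 54.4 CPM in littermate vehicle brain. Its log2 difference of -0.76 (SE 0.29, adjusted p = 0.509) was -0.29 without littermate vehicle library s155.

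Under Cmpd60, 3 genes lay apart between the genotypes (0.936% of all genes), Kcnd2 being higher and Kcnc4 and Kcne2 lower in APPSWE brain. Kcnd2, a Kv4 pore subunit of dendrites, was at 179, 181, 189 and 214 CPM in APPSWE and 144.8, 164, 168, 173 and 178 CPM in littermate brain (0.20, SE 0.10, adjusted p = 1). Kcnd3, of the same family, was at 109, 121, 122 and 134 CPM against 83.3, 96.8, 108, 110 and 122 CPM (0.23). For Cmpd60 in littermates the groups lay apart for Kcnk2 alone (0.509% of all genes), at 67.2, 67.4, 69.9, 74.2 and 112 CPM with Cmpd60 and 59.3, 61.4, 61.4, 63.4 and 67.2 CPM with vehicle. Its log2 fold change was 0.32 (SE 0.14), and 0.16 without Cmpd60 library s152. Summed over all 93 genes, levels were 6823 to 7439 CPM with Cmpd60 and 6503 to 6821 CPM with vehicle in APPSWE brain, and 6576 to 7278 CPM and 6179 to 6693 CPM in littermates. Choroid plexus markers summed to 337 to 549 CPM with Cmpd60 and 373 to 1527 CPM with vehicle in APPSWE brain, 4 of 4 being lower, and neuron markers to 6875 to 7117 CPM and 6273 to 7141 CPM. Their part in these values was not tested.

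Among 31 other genes that handle potassium (pumps, cotransporters, pacemaker channels and accessory subunits), a few passed the test in the aged tissues. This list was chosen with earlier results of these data known. The shares of all genes called in each aged tissue are those given above for the Cmpd60 effect. In heart 3 of 30 tested were called. Atp1b1, a sodium pump subunit, rose from 238 ± 13.3 to 314 ± 30.4 CPM (0.40, SE 0.07, adjusted p = 0.0150), with groups that did not overlap, and of the single libraries left out only Cmpd60 library 72 ended the call (adjusted p = 0.0547). The pacemaker channel Hcn2 rose from 15.1 ± 1.55 to 20.5 ± 2.25 CPM (0.43, SE 0.09, adjusted p = 0.0390), and Hcn4 fell from 16.6 ± 3.02 to 10.8 ± 1.18 CPM (-0.61, SE 0.12, adjusted p = 0.0245). Leaving out single libraries gave adjusted p-values of 0.0266 to 0.114 for Hcn2, lost without any of Cmpd60 libraries 68, 69, 71 and 72 or vehicle libraries 62, 63, 64, 66 and 67, and of 0.0171 to 0.0759 for Hcn4, lost without Cmpd60 library 69 or 72 or vehicle library 63. Hcn4 is itself one of the 4 conduction markers, of which 3 were lower, beside all 4 atrial markers, and their part in its fall was not tested.

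In kidney 1 of 28 tested was called. Slc12a2, the basolateral sodium-potassium-chloride cotransporter, fell from 69.7 ± 6.07 to 49.0 ± 6.82 CPM with no overlap (-0.51, SE 0.10, adjusted p = 0.0481), and its effect in heart exceeded that in kidney by 0.69 log2 units (SE 0.14, adjusted p = 0.0155). The direction in kidney rests on the titles and would turn under the treatment field, which would also change the difference from heart. Single libraries moved its adjusted p in kidney between 0.0121 and 0.160, and the call was lost without any of Cmpd60 libraries 50, 51, 53 and 54 or any vehicle library from 45 to 49. In brain 1 of 30 was called, Hcn4, which was at 15.6 ± 1.66 CPM with Cmpd60 and 20.9 ± 0.325 CPM with vehicle (-0.42, SE 0.07, adjusted p = 0.0423). Single libraries moved it between 0.0133 and 0.114, and it was lost without any of Cmpd60 libraries 33, 34, 35 and 37 or vehicle libraries 27, 28, 30, 31 and 32. In the dementia cohort edgeR called 0 of 30 of these genes in each comparison, with 3, 1, 1, 0 and 0 genes at an unadjusted p below 0.05 in the order given above. The shares of all genes are those given there for the same comparisons.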

How the data were processed

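Total RNA of homogenised mouse tissue was sequenced by the study from oligo-dT-selected, strand-specific libraries. Per the submitters' processing notes, reads passed FastQC, Trimmomatic 0.32, HISAT2 2.1.0 and HTSeq 0.11.0. The genome build is not given in the sources used here. The authors deposited raw read counts for 54232 Ensembl genes and 5 summary lines per library, which held 15.4% to 22.1% of reads and were left out. Kcnj11 was not matched to an identifier and is not analysed here.

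Groups were taken from titles and source names. The treatment field of the kidney samples gives the opposite of their titles, which were followed. Library s139 was put in each treatment group in turn as an alternative. No 2 libraries agreed within sampling noise. The members, gene lists and tests were chosen with earlier results of these data known.

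Counts were scaled by TMM and tested with edgeR 4.0.16 (glmQLFit and glmQLFTest, R 4.3.3), two-sided, with Benjamini-Hochberg adjustment over all genes tested, on genes that exceeded 2 counts in 3 or more libraries of the fit. Separate fits were made for each aged tissue, the 17 vehicle libraries, all 34 aged libraries (differences of the effect between tissues) and 19 dementia libraries. CPM (counts scaled to TMM library sizes) were computed within each fit, so a gene's level differs slightly between fits. Fold changes are log2 with a prior count of 2. Genes named are the 4 of smallest p per comparison at 1 CPM or more where fewer than 4 passed, the 6 of largest excess per tissue, the 4 of most even level, a list of 28 well-known members, and all members of any count of 5 or fewer, apart from 3 genes that are counted among the members but not reported here by name. Kcnd1, Kcnc4, Kcne2, Kcng4, Kcnmb4 and Kcns1 were named only for such counts, and Kcnj6 and Kcnmb1 after their values were seen.

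Alternatives were limma-voom 3.58.1, DESeq2 1.42.0, DESeq2's size factors, omission of the filter, a stricter one requiring 10 counts, a covariate for genes detected, a joint fit of aged libraries, and leaving out each library. Simulated counts with planted changes were run through the fits of each aged tissue, of the vehicle tissues and of the dementia cohort. The fit of all 34 aged libraries was not simulated. Recovery of the largest planted changes was required of the aged fits, and no such standard was set for the dementia fit. Its common coefficient of variation between libraries was 0.729, against 0.255 in aged kidney, 0.114 in aged brain and 0.210 in aged heart.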

Additional observations from a re-analysis of the deposited data

Results flagged for a closer look

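Dixon's test was applied to 83 sets of group values of named genes, and 6 held a library far from the rest of its group. Chance flags about 1 in 20 groups. In the dementia cohort, Kcnj15 was at 9.58 CPM in APPSWE vehicle library s140 and at 0 in the other 4 of that group, and at 0.107 CPM in littermate vehicle library s151, where the next highest value was 0.0263 CPM. Kcnj8 was at 13.5 CPM in littermate Cmpd60 library s152, against at most 5.36 CPM in the rest of the group. In the same library Kcnk2 was at 112 CPM, against at most 74.2 CPM. Kcnn1 was at 54.4 CPM in littermate vehicle library s155, against at most 21.1 CPM. Libraries s140, s152 and s155 had the fewest genes detected in the cohort, at 15555, 15084 and 15044. The part of this in the flagged values was not tested. In aged vehicle kidney, Kcnk5 was at 123 CPM in library 45, against at most 105 CPM in the other 4 libraries.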

How the results depend on the processing

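No paired analysis was possible because each library number occurs once and the labels do not say which tissues share a mouse. Most values kept their direction and their side of the threshold. Counts of called members that moved from 0 for the Cmpd60 effect were, in brain, 2 by DESeq2, 1 without a filter and 0 to 1 on leaving out single libraries (1 without vehicle library 29). In heart they were 2 in the joint fit of aged libraries (Kcna2 and Kcnab3), 3 by DESeq2, 1 each with at least 10 counts, with the covariate and without a filter (Kcna2), and 0 to 2 on leaving out single libraries (2 without Cmpd60 library 71). In kidney 1 was called in the joint fit (Kcnn1). For differences between tissues DESeq2 called 4 for heart minus brain, 3 for heart minus kidney and 2 for kidney minus brain, and single libraries gave 0 to 1 for the last 2 comparisons (Kcnab2 without heart vehicle library 65 or kidney Cmpd60 library 54, and Kcns1 without kidney Cmpd60 library 53). In the joint fit the members at p below 0.01 went from 1 to 8 in kidney, from 6 to 1 in brain and from 4 to 7 in heart. The cause was not tested. Values that changed sign were near 0 apart from Kcnj15. By limma-voom they were 0.0034 for Kcnk5 (brain minus heart), -0.011 for Kcns2 (Cmpd60 in brain), and -0.0086 for Kcnj1 and -0.0040 for Kcnj16 (Cmpd60 in kidney). Leaving out single libraries gave ranges of -0.238 to 0.0756 for Kcnk5 (brain minus heart), -0.0668 to 0.0726 for Kcns2 in brain, -0.107 to 0.000933 for Kcng2 and -0.0246 to 0.0585 for Kcnj5 in heart, and -0.0488 to 0.0857 for Kcnj1, -0.0713 to 0.0741 for Kcnj16 and -0.000593 to 0.458 for Kcnn4 in kidney. The range for Kcnj15 (genotype under vehicle) was -2.91 to 7.37, and it was -3.21 without dementia libraries under 17000 genes detected, an alternative chosen after seeing the data. The value of -2.91 was that without APPSWE vehicle library s140, the 1 APPSWE vehicle library in which Kcnj15 was above 0. Tissue calls stayed within 1.5 times, at 76 to 79 for brain minus heart, 82 to 86 for brain minus kidney and 57 to 62 for kidney minus heart. Depth limits the members under 1 CPM.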

Other observations

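Library s139, an APPSWE brain whose treatment the sources give in 2 ways, lay at these levels of the genes described. Kcnip3 was at 124 CPM in it, between the APPSWE vehicle libraries (102 to 123 CPM) and the Cmpd60 libraries (125 to 156 CPM). Kcng1 was at 31.7 CPM, above both (16.5 to 24.5 and 24.9 to 31.1 CPM). Kcna2 was at 564 CPM, above the vehicle range of 487 to 562 CPM and inside the Cmpd60 range of 548 to 613 CPM. Kcnt1, at 157 CPM, was likewise above the vehicle range (122 to 139.3 CPM) and inside the Cmpd60 range (138.6 to 183 CPM). Kcnab1, at 122 CPM, was below both ranges (132 to 159 and 150.6 to 187 CPM). With this library placed in either treatment group, edgeR called 0 potassium channel genes for Cmpd60 in APPSWE brain, with 1 at p below 0.01 when it was placed with vehicle.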
